A study of Mus musculus with 10 samples.

Results

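Arginine can be split by arginase into urea and ornithine, and ornithine is the starting point of the polyamines. The genes described here are 10 enzymes and regulators of that route, named for it with their levels in these cells already known: the arginases Arg1 and Arg2, the arginine-making enzymes Ass1 and Asl, ornithine decarboxylase Odc1 and its regulator Azin1, the synthases Srm and Sms, the acetyltransferase Sat1, and agmatinase Agmat. Of the 10 genes, 9 had a row among the 19213 rows of the table, and Agmat, for which no row matched, was not analysed here. A filter of at least 1 RPKM (reads per kilobase of gene length, relative to library size) in at least 2 libraries was passed by 12700 genes, 7 of the 9 among them. Those 7 had 1 RPKM or more in all 10 libraries, and the other 2, Arg2 and Ass1, were under 1 RPKM in all of them.

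RNA was sequenced from 2 delta cell libraries, 3 alpha cell libraries and 5 beta cell libraries, all sorted from islets of adult triple transgenic mice. Every animal carried mIns1-H2b-mCherry, a nuclear red reporter under the mouse Ins1 promoter that marks beta cells, together with a floxed YFP allele. Delta cells carried the YFP label through Sst-Cre and alpha cells through Gcg-cre, and beta cells came from the islets of either cross. Each pool joined islets from 10 to 12 animals of 1 sex, which were cultured overnight at 5.5 mM glucose before sorting. Delta library 1, alpha libraries 1 and 2 and beta libraries 1 and 3 came from male pools, and delta library 2, alpha library 3 and beta libraries 2, 4 and 5 from female pools. The labels tell neither which libraries share islets nor whether pools were separate, and a p-value here reflects library-to-library spread alone, some of which may be technical. Alpha libraries 1 and 2 share a title number, as do beta libraries 4 and 5, so these may not be separate pools.

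Library totals recovered from the table ran between 16688097 and 26684086 reads, and reads of hormone genes took 9.81% to 10.6% of delta, 27.5% to 30.9% of alpha and 17.6% to 31.8% of beta libraries. Each sort carried its own hormone as the leading one. Sst (somatostatin) averaged 56600 ± 5930 RPKM in delta cells, 1830 ± 979 in alpha cells and 422 ± 324 in beta cells (SD, n = 2, 3 and 5). Gcg (glucagon) averaged 22200 ± 1400 RPKM in delta cells, 255000 ± 15000 in alpha cells and 1470 ± 866 in beta cells. Ins2 (insulin) averaged 2560 ± 618 RPKM in delta cells, 1880 ± 230 in alpha cells and 250000 ± 69800 in beta cells. Delta libraries therefore held Gcg at 8.33% and 9.11% of the alpha mean. RPKM is a share of the library, and the median log2 fold change of all tested genes between delta and beta cells was 0.25, against -0.001 after median-ratio scaling.

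In the liver, arginase 1 closes the urea cycle, in which Ass1 and Asl rebuild arginine from citrulline and aspartate. Arginase 2 is the mitochondrial form found in many other tissues. Ornithine decarboxylase makes putrescine, spermidine synthase adds an aminopropyl group to give spermidine, and spermine synthase adds another to give spermine. Antizymes bind ornithine decarboxylase and send it to the proteasome, and antizyme inhibitor, a decarboxylase relative with no activity of its own, binds the antizymes in its place. Polyamines bind nucleic acids and ion channels, and spermidine is the donor for hypusine, a modified residue of the translation factor eIF5A.

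RefSeq promoter sequence (GRCm38.p6) was held for 4 of the 9 genes. Odc1, Sms and Sat1 are shown, since they are the tested genes among the 4, and Odc1 was lower and Sms higher in delta and alpha cells than in beta cells. Each run reads toward the gene over the 250 bases before the RefSeq start site, that of Odc1 stopping where the GENCODE gene begins. The window printed lies at chr12:17544623-17544793 on the plus strand for Odc1, at chrX:157492288-157492537 on the minus strand for Sms and at chrX:155216450-155216699 on the minus strand for Sat1. Capitals mark matches to the GC box GGGCGG, the E-box CACGTG and the sequence CCAAT, on either strand.
Odc1: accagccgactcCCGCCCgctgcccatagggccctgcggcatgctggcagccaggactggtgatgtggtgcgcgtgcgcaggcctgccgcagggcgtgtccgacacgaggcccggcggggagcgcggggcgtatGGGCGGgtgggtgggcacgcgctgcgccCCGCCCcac
Sms: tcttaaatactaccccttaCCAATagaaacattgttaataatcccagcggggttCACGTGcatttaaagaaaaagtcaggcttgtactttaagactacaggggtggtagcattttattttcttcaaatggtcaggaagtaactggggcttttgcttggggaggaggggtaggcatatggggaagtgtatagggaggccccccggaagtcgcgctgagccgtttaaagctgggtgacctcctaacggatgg
Sat1: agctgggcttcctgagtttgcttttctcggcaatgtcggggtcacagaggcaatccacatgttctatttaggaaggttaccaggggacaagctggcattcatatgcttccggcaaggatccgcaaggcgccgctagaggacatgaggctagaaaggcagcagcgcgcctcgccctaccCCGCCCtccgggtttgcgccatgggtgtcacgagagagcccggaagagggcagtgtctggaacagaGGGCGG
The Odc1 window was 80.0% G and C with 35 CG pairs, the Sat1 window 59.6% with 15, and the Sms window 47.2% with 7. Over 32851 promoter windows of the same length the medians were 52.4% and 6 CG pairs. In its 250 bases Odc1 held 4 matches to the GC box, whose first bases lay at -238, -116, -88 and -15 from the start site, and the last of these is past the printed stretch. Sat1 held 2 matches to the GC box. Sms held 1 E-box match and 1 CCAAT match in the printed window. Searched on both strands, GGGCGG was found in 32.7% of all windows, CACGTG in 6.02% and CCAAT in 33.8%. A further RefSeq window of Sms, which starts at 157491369 inside the gene and is not printed, held 4 matches to the GC box, some of them overlapping.

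Arg1 was high in delta cells, lower in alpha cells and lowest in beta cells. It reached 284 and 244 RPKM in delta libraries 1 and 2, 23.4, 19.2 and 16.5 in alpha libraries 1 to 3, and 1.29, 1.44, 2.75, 2.04 and 4.19 in beta libraries 1 to 5. The 3 sets of libraries did not overlap, and the lowest delta library was above the highest alpha library, itself above every beta library. The means were 264 ± 28.1, 19.7 ± 3.52 and 2.34 ± 1.18 RPKM in delta, alpha and beta cells (SD, n = 2, 3 and 5). The ratio of mean RPKM was 113 for delta over beta cells, 8.41 for alpha over beta cells and 13.4 for delta over alpha cells. On the log2(RPKM + 1) scale of the fit, the fold changes were 6.37 (SE 0.30), 2.67 (SE 0.27) and 3.69 (SE 0.33) for the same 3 comparisons. These and all later cell type differences of the 9 genes are given with no test, since the genes were picked with the values known.

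Across 18 other ways of processing the table, the log2 fold change of Arg1 ran between 6.10 and 6.88 for delta over beta cells. For alpha over beta cells it ran between 2.47 and 3.13, and for delta over alpha cells between 3.38 and 3.81. The 18 do not include a fit with a replicate block on neighbouring title numbers, added after seeing the data. That fit gave 2.09 for alpha over beta cells and 4.71 for delta over alpha cells, both outside these ranges. The gene (chromosome 10, 24915221 to 24927484, minus strand, GRCm38) drew 6690 to 8465 reads in delta libraries, 424 to 578 in alpha libraries and 50 to 165 in beta libraries. None of its transcript windows of 50 bases occurs in another gene of the GENCODE annotation. By RPKM, Arg1 ranked 93 and 119 among all rows in the 2 delta libraries, 2279 to 3764 in alpha libraries and 9036 to 10631 in beta libraries. It made 68.8% to 71.2% of the summed RPKM of the 9 genes in delta libraries, 14.3% to 20.9% in alpha libraries and 0.814% to 2.18% in beta libraries.

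Arg1 in the other sorts was set beside somatostatin, the hormone that defines delta cells. As a share of the delta mean, Arg1 stood at 8.89%, 7.27% and 6.24% in alpha libraries 1 to 3, where Sst stood at 5.19%, 1.91% and 2.6%. In beta libraries 1 to 5 Arg1 stood at 0.489%, 0.546%, 1.04%, 0.773% and 1.59% of the delta mean, and Sst at 0.176%, 0.354%, 0.624%, 0.946% and 1.63%. In alpha cells each Arg1 share was above the Sst share of the same library, by the widest margin in alpha library 2. The beta libraries fell on both sides, with Sst ahead in libraries 4 and 5. Put as a ratio, Arg1 was 0.401% to 0.541% of Sst by RPKM in delta libraries, 0.798% to 1.78% in alpha libraries and 0.381% to 1.3% in beta libraries. Among beta libraries Arg1 had a coefficient of variation of 50.4%, and 92.8% of tested genes varied less, with a median of 17.0%. The part of delta cells in the Arg1 of the other sorts was not tested.

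**Figure D1:**
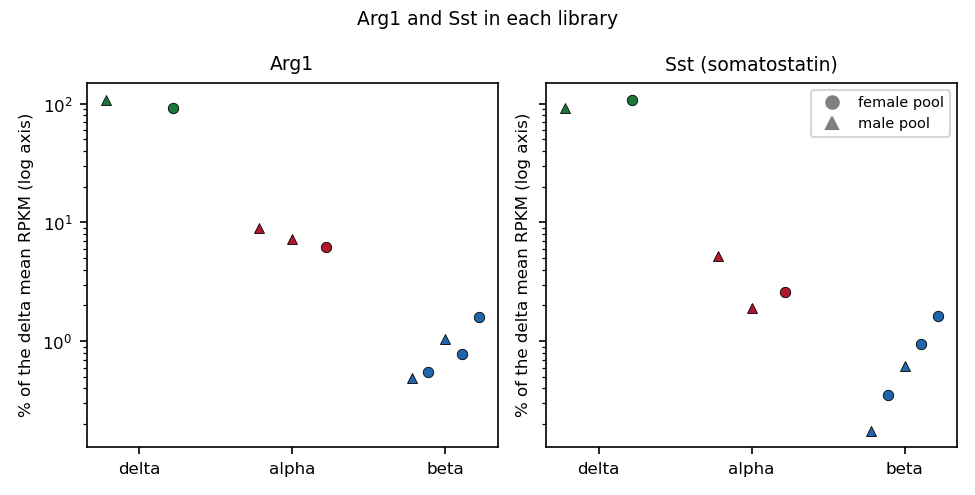
Arg1 (left) and Sst (right) in each library as a percentage of the mean RPKM of the 2 delta libraries, on a log axis, by cell type, with triangles for male pools and circles for female pools. In alpha libraries Arg1 stood at 6.24% to 8.89% and Sst at 1.91% to 5.19%, and in beta libraries both were under 2% of the delta mean.

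Arginase 1 is also a marker of some macrophages, so macrophage genes were read in the same libraries. Of 12 such genes with a row, 9 were under 1 RPKM in both delta libraries, 3 of them (Emr1, Lyz2 and Chil3) at 0. Their summed level was 75.2 and 88.2 RPKM in delta libraries, mostly from C1qa at 57.7 and 73.5 RPKM, 21.5 to 40.5 in alpha libraries and 90.0 to 170 in beta libraries. C1qa, a complement subunit, stood at 17.7, 13.9 and 11.1 RPKM in alpha libraries and 33.1, 40.2, 24.1, 26.1 and 21.1 in beta libraries, so it was highest in delta cells, as Arg1 was. C1qb, its partner subunit, stood at 0.0466 and 0.0507 RPKM in delta libraries, at most 0.112 in alpha libraries and 3.74 to 13.1 in beta libraries. Cd74 made the largest share of the beta sums, at 32.6 to 72.6 RPKM. The part of macrophages in the Arg1 levels was not tested. Endothelial markers summed to 5.15 RPKM or less and stellate cell markers to 3.74 RPKM or less in every library. Acinar markers summed to 385 to 601 RPKM in delta, 68.9 to 2680 in alpha and 167 to 8210 in beta libraries. Ductal markers, mainly Krt7 and Spp1, summed to 327 to 398 RPKM in delta, 833 to 1940 in alpha and 539 to 706 in beta libraries. Krt7 was highest in beta libraries (320 to 460 RPKM) and Spp1 in alpha libraries (691 to 1800 RPKM), so the sum follows these genes. Cftr was at 0.298 RPKM or less, Krt19 at 14.4 or less and Muc1 at 14.3 or less in every library. The part of acinar and ductal cells in the levels below was not tested. In sorted bulk samples, more cells with Arg1 RNA and more Arg1 RNA per cell cannot be told apart.

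The other arginase and the first enzyme of arginine synthesis were barely read. Arg2 stood at 0.419 and 0.532 RPKM in delta libraries, 0.0423, 0.334 and 0.445 in alpha libraries, and 0.108, 0.0867, 0.199, 0.0911 and 0.212 in beta libraries. Both delta libraries were above all beta libraries, but the counts behind these values were only 12 to 14 reads in delta, 1 to 11 in alpha and 3 to 8 in beta libraries. In Arg2, 21.2% of transcript windows occur in another gene, most of them in the overlapping gene Vti1b. Ass1, argininosuccinate synthase, was read once in each of delta library 1 and beta libraries 2 and 5, at 0.0303, 0.0251 and 0.023 RPKM, and was at 0 in the other 7 libraries. The floor of 3 reads allows up to 0.11 RPKM in alpha library 1, the shallowest of those at 0. A processed pseudogene, Gm5424, shares 38.6% of the Ass1 windows, and the handling of multi-mapped reads was not stated.

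Asl, argininosuccinate lyase, which frees arginine from argininosuccinate, was read well in all 3 cell types. It stood at 14.0 and 14.9 RPKM in delta libraries, 12.0, 11.1 and 10.0 in alpha libraries, and 22.5, 20.9, 18.2, 18.0 and 14.9 in beta libraries. Alpha libraries lay below all others, while delta library 2 and beta library 5 stood at about the same level. The log2 fold change was -0.36 (SE 0.14) for delta over beta cells and -0.74 (SE 0.13) for alpha over beta cells. For delta over alpha cells it was 0.38 (SE 0.15), with 0.08 to 0.52 over the 18 alternatives.

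**Figure D2:**
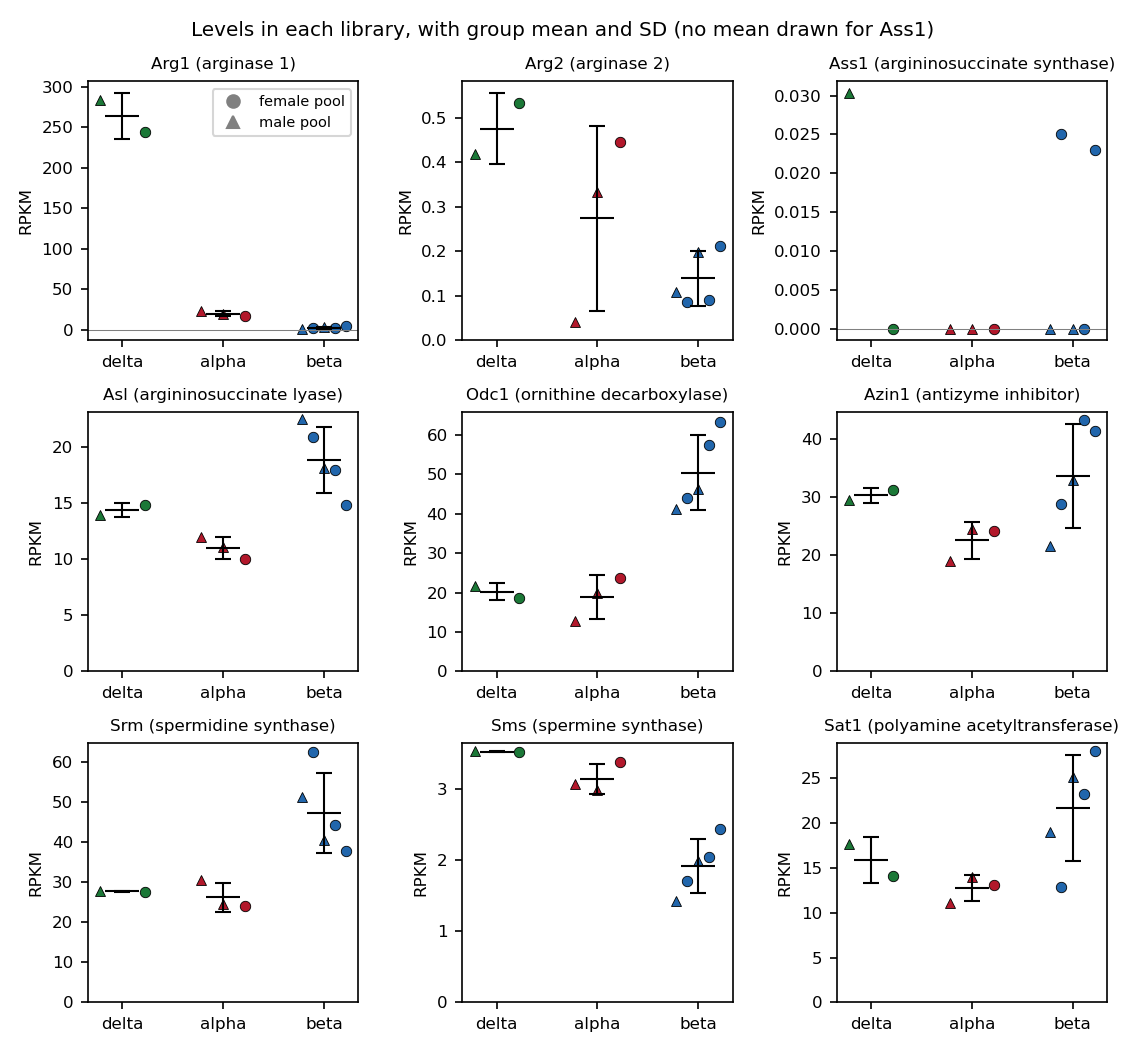
RPKM of the 9 genes in each library (triangles, male pools, and circles, female pools), grouped as delta, alpha and beta cells, with the group mean and SD as a bar except for Ass1. Arg1 peaks in delta cells at 284 and 244 RPKM, Odc1 and Srm are highest in beta cells, Sms is lowest there, and Arg2 and Ass1 are under 1 RPKM throughout.

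Odc1, the enzyme that commits ornithine to polyamines, was highest in beta cells, where Arg1 was lowest. It stood at 21.7 and 18.7 RPKM in delta libraries, 12.9, 20.0 and 23.7 in alpha libraries, and 41.3, 44.0, 46.3, 57.5 and 63.2 in beta libraries. Every beta library was above every delta and alpha library, while delta and alpha libraries overlapped. The means were 20.2 ± 2.1 RPKM in delta cells, 18.9 ± 5.48 in alpha cells and 50.5 ± 9.42 in beta cells. The log2 fold change was -1.24 (SE 0.21) for delta over beta cells, with -1.52 to -0.93 over the alternatives. For alpha over beta cells it was -1.33 (SE 0.18), with -1.48 to -1.08, and for delta over alpha cells it was 0.09 (SE 0.23), with the other sign in 5 of 18 alternatives. Odc1 lies on chromosome 12 (17544794 to 17551505, plus strand), and 24.3% of its transcript windows occur in 16 other genes, most often in the pseudogene Gm7993.

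Azin1, the antizyme inhibitor, varied less between cell types than the decarboxylase it resembles. It stood at 29.4 and 31.2 RPKM in delta libraries, 18.9, 24.5 and 24.2 in alpha libraries, and 21.6, 28.8, 32.9, 43.3 and 41.4 in beta libraries. Beta libraries overlapped those of both other cell types, and the delta libraries were above the alpha libraries. The log2 fold change was -0.07 (SE 0.21) for delta over beta cells, -0.44 (SE 0.19) for alpha over beta cells and 0.37 (SE 0.23) for delta over alpha cells. An antisense gene, Gm49077, shares 4.83% of the Azin1 windows, and the library kit does not mark strand.

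The ratio of Odc1 to Azin1 by RPKM was 0.737 and 0.601 in delta libraries, 0.683, 0.817 and 0.978 in alpha libraries, and 1.91, 1.53, 1.41, 1.33 and 1.53 in beta libraries. Azin1 was therefore ahead in all delta and alpha libraries and Odc1 in all beta libraries. Mean ratios were 0.669 ± 0.0963 in delta cells, 0.826 ± 0.148 in alpha cells and 1.54 ± 0.224 in beta cells. A ratio within a library does not depend on how the library was scaled.

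The synthases differed in opposite directions. Srm, spermidine synthase, stood at 27.9 and 27.7 RPKM in delta libraries, 30.5, 24.5 and 24.0 in alpha libraries, and 51.4, 62.7, 40.7, 44.3 and 37.8 in beta libraries. All beta libraries were above all others, and the delta values lay within the alpha range. The log2 fold change was -0.73 (SE 0.19) for delta over beta cells, with -1.02 to -0.62 over the alternatives, and -0.82 (SE 0.17) for alpha over beta cells. Between delta and alpha cells it was 0.09 (SE 0.20), with the other sign in 3 alternatives.

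Sms, spermine synthase, an X-linked gene, stood at 3.53 and 3.52 RPKM in delta libraries, 3.07, 2.98 and 3.38 in alpha libraries, and 1.42, 1.70, 1.98, 2.05 and 2.43 in beta libraries. Beta libraries were the lowest here, and alpha libraries lay just under the delta libraries. The log2 fold change was 0.66 (SE 0.13) for delta over beta cells, with 0.17 to 0.89 over the alternatives. It was 0.55 (SE 0.12) for alpha over beta cells, with 0.39 to 0.75, and 0.11 (SE 0.14) for delta over alpha cells, with the other sign in 3 of 17 alternatives. A pseudogene, Sms-ps, shares 17.4% of the Sms windows. The ratio of Srm to Sms by RPKM was 7.91 and 7.86 in delta libraries, 9.92, 8.23 and 7.09 in alpha libraries, and 36.1, 37.0, 20.5, 21.6 and 15.6 in beta libraries. No beta library reached down to the others, and the beta libraries spread most widely, with a mean of 26.2 ± 9.75 against 7.89 ± 0.0387 in delta and 8.41 ± 1.42 in alpha cells.

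**Figure D3:**
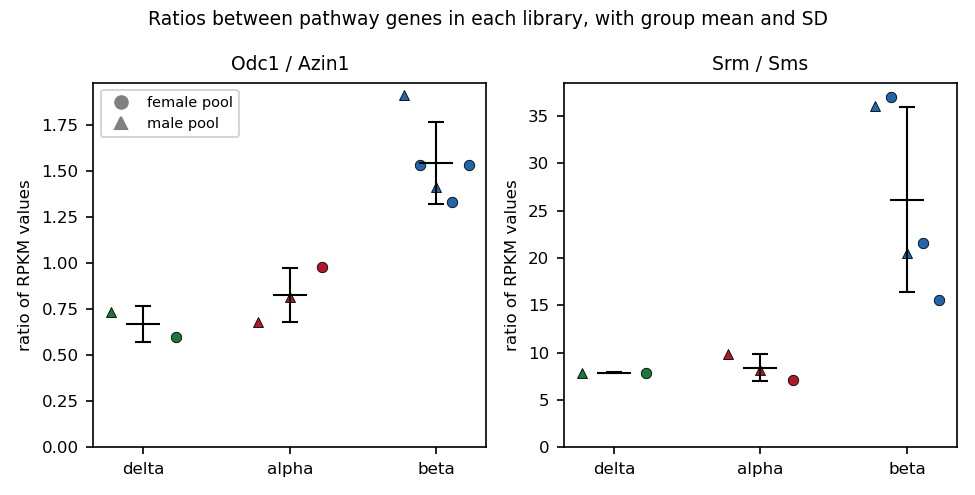
The ratio of Odc1 to Azin1 (left) and of Srm to Sms (right), both ratios of RPKM values, in each delta, alpha and beta library, with the group mean and SD as a bar, triangles for male pools and circles for female pools. Both ratios were higher in every beta library (1.33 to 1.91 and 15.6 to 37.0) than in any delta or alpha library.

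Sat1, which acetylates spermidine and spermine for breakdown or export, is X-linked as well. It stood at 17.7 and 14.1 RPKM in delta libraries, 11.1, 14.0 and 13.1 in alpha libraries, and 19.0, 12.9, 25.1, 23.2 and 28.0 in beta libraries. Beta library 2 was within the alpha range and the other 4 beta libraries were above all delta and alpha libraries. The log2 fold change was -0.40 (SE 0.26) for delta over beta cells, -0.70 (SE 0.23) for alpha over beta cells and 0.31 (SE 0.28) for delta over alpha cells. The last of these turned to -0.004 under quantile normalization.

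Set side by side, Arg1 and Sms were higher and Odc1 and Srm lower in both delta and alpha cells than in beta cells with no overlap of libraries. The comparisons share the beta libraries. For delta over beta cells that made 2 genes higher and 2 lower of the 7, where 46.4% and 16.4% of all tested genes were so. For alpha over beta cells 2 genes were higher and 3 lower, Asl being the third, where 20.8% and 29.2% of all tested genes were so. For delta over alpha cells 5 genes were higher and 0 lower, where 60% and 11% of all tested genes were so. After median-ratio scaling, which takes out the general shift, 2 were higher and 3 lower, 2 and 4, and 1 and 1 in the 3 comparisons. The share of all genes without overlap was not counted after that scaling. The median log2 fold change of the 7 genes was -0.36, -0.70 and 0.31 for the 3 comparisons, and that of all tested genes was 0.25, -0.02 and 0.26.

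**Figure D4:**
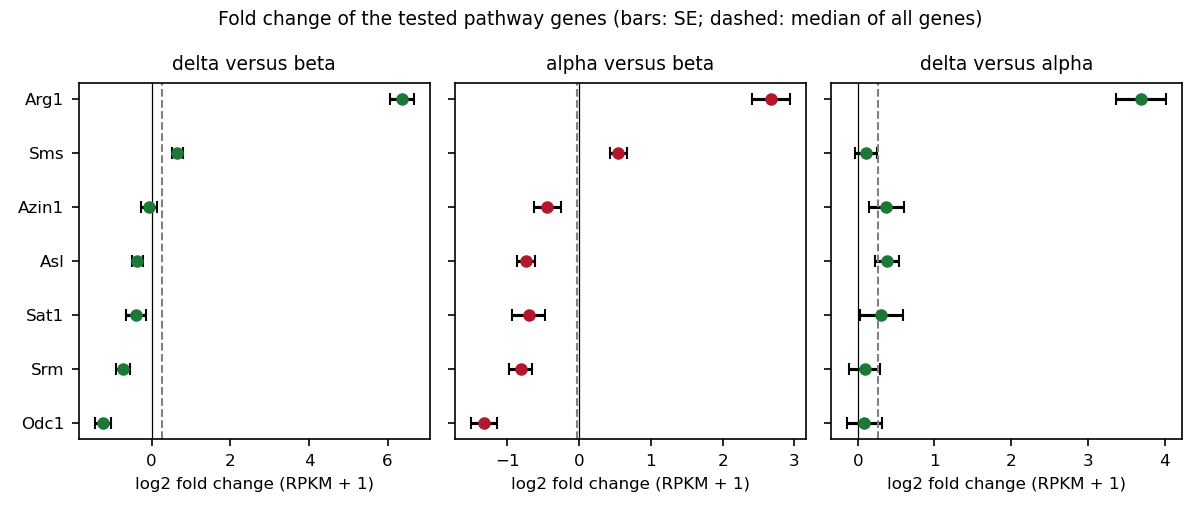
Log2 fold change with its SE for the 7 tested genes in delta over beta, alpha over beta and delta over alpha cells, on the log2(RPKM + 1) scale, with 0 as a solid line and the median of all tested genes dashed. Arg1 stands apart in each panel (6.37, 2.67 and 3.69), and the horizontal scales differ between panels.

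By level, Arg1 led the 9 genes in both delta libraries, ahead of Azin1. Srm led in alpha libraries 1 and 2 and Azin1 in alpha library 3. In beta cells Srm led in libraries 1 and 2 and Odc1 in libraries 3 to 5, while Arg1 came sixth or lower. The summed RPKM of the 9 genes was 355 to 398 in delta libraries, 112 to 117 in alpha libraries and 159 to 192 in beta libraries.

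The genes closest to Arg1 over the 10 libraries were found by the root mean square difference of centred log2(RPKM + 1). They were Ncam2 at 0.607, Gm609 at 0.634 and Rbp4 at 0.667, where the median over all tested genes was 2.387. Rbp4 (retinol binding protein 4) averaged 1880 ± 124 RPKM in delta, 342 ± 30.3 in alpha and 21.8 ± 12 in beta cells, the same order as Arg1. Ncam2, a neural cell adhesion molecule, averaged 39.9 ± 4.12, 5.09 ± 2.26 and 0.265 ± 0.234 RPKM in delta, alpha and beta cells. Closest to Odc1 were Adam9 at 0.181, Ssfa2 at 0.193 and Gla at 0.204, with a median of 0.787 over all tested genes. Adam9, a membrane metalloprotease, averaged 10.5 ± 0.492 RPKM in delta, 11 ± 2.36 in alpha and 30.3 ± 8.77 in beta cells.

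Sex was not used to pick the genes, so female and male libraries were tested across all 10 libraries with limma and Benjamini-Hochberg adjustment. Of the 7 genes, 0 were called at an adjusted p under 0.05, where 0.0472% of all tested genes were called, and 0 reached an unadjusted p under 0.05, where 4.99% did. The largest difference was that of Azin1, 0.30 on the log2 scale (SE 0.16, adjusted p = 0.77, with 0.15 to 0.37 when 1 library at a time was left out). Odc1 differed by 0.26 (SE 0.16, adjusted p = 0.77). The X-linked genes Sms and Sat1 differed by 0.125 (SE 0.10, adjusted p = 0.771) and -0.09 (SE 0.20, adjusted p = 0.885). Arg1 averaged 244, 16.5 and 2.56 RPKM in female and 284, 21.3 and 2.02 in male delta, alpha and beta libraries, a difference of -0.04 (SE 0.23, adjusted p = 0.962). Whether the sex difference itself differed between alpha and beta cells was tested as an interaction, and 0 of the 7 genes and 0% of all genes were called by limma. At an unadjusted p under 0.05 the interaction took in 0 of the 7 and 1.16% of all genes, and alpha cells had 1 female library only.

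The rest of the pathway was read from 9 lists of carriers and enzymes, 48 genes with a row, of which 35 passed the filter. These were tested by limma with adjustment over all 12700 genes. The lists, too, were chosen with earlier results of these data known, so the p-values below are no independent test of the pathway. In delta over beta cells 9 genes rose and 8 fell, where 37.4% of all tested genes rose and 13.3% fell. In alpha over beta cells 6 rose and 14 fell, against 23.7% and 30.3% of all tested genes. In delta over alpha cells 10 rose and 6 fell, against 32.1% and 5.89%. Nags and Nos2, which reached 1 RPKM in 1 cell type only, are among the 35, and without them the counts were 8 and 7, 6 and 13, and 9 and 6. After median-ratio scaling the counts over the 35 were 7 and 13, 6 and 11, and 6 and 7. Of all tested genes 24.6% rose and 24.4% fell after that scaling in delta over beta cells, 27.8% and 29% in alpha over beta cells, and 14.5% and 10.4% in delta over alpha cells. The median log2 fold changes of the 35 were 0.05, -0.13 and 0.20.

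Arginine carriers differed between the cell types. Slc7a2, a cationic amino acid transporter, averaged 22.1 ± 0.137 RPKM in delta, 160 ± 23.1 in alpha and 26.8 ± 6.09 in beta cells (SD, n = 2, 3 and 5). It rose in alpha over beta cells by 2.63 on the log2 scale (SE 0.17, adjusted p = 2.5e-06) and was not called in delta over beta cells (-0.21, SE 0.19, adjusted p = 0.38), though it was called lower there after median-ratio scaling (adjusted p = 0.0198). Slc7a1, the widespread member of the same family, averaged 23.6 ± 0.409 RPKM in delta, 8.14 ± 1.04 in alpha and 23.8 ± 6.68 in beta cells, and fell in alpha over beta cells by 1.32 (SE 0.16, adjusted p = 0.000147). Slc7a3 fell in both delta over beta cells (-1.47, SE 0.25, adjusted p = 0.00133) and alpha over beta cells (-2.19, SE 0.22, adjusted p = 4.44e-05). Slc3a2, the heavy chain that pairs with several amino acid carriers, fell in delta over beta cells (-0.87, SE 0.11, adjusted p = 0.000159). Of the 6 carriers, 0 rose and 2 fell in delta over beta cells, where 37.4% and 13.3% of all tested genes did. In alpha over beta cells 3 rose and 3 fell, against 23.7% and 30.3% of all tested genes. Slc7a7, 1 of the 3 that rose, reached 1 RPKM only in delta library 2 (1.07) and alpha library 3 (1.14). Beta libraries were at 0.32 to 0.849 RPKM, so its place among the tested genes rests on the cells where it was higher. Its call in alpha over beta cells was lost under quantile normalization (adjusted p = 0.11). Taken against Arg1, the highest Slc7a2 level was in alpha cells and the highest Arg1 level in delta cells.

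Around the urea cycle, the first enzyme, Cps1, was at 0.0107 RPKM or less in every library. Nags, which makes the activator of Cps1, averaged 1.68 ± 0.21 RPKM in delta, 0.122 ± 0.146 in alpha and 0.106 ± 0.0431 in beta cells, and reached 1 RPKM in its delta libraries alone, so that its place among the tested genes rests on the cells where it was high, and no test is given for it. The mitochondrial ornithine carrier Slc25a15 fell in alpha over beta cells (-0.49, SE 0.10, adjusted p = 0.00216). Its fall in delta over beta cells (-0.38, SE 0.11, adjusted p = 0.0166) was not called without either delta library, the highest adjusted p then being 0.155. Otc, the enzyme that joins ornithine and carbamoyl phosphate, was not analysed here.

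Ornithine can also enter or leave through proline and glutamate. Oat, ornithine aminotransferase, averaged 6.68 ± 0.548 RPKM in delta, 28.1 ± 5.73 in alpha and 1.04 ± 0.197 in beta cells. It rose in delta over beta cells by 1.93 (SE 0.16, adjusted p = 1.53e-05), in alpha over beta cells by 3.85 (SE 0.15, adjusted p = 8.17e-08), and fell in delta over alpha cells by 1.92 (SE 0.18, adjusted p = 3.93e-05). Pycr1, a proline-making reductase, averaged 4.75 ± 0.317 RPKM in delta, 4.13 ± 0.931 in alpha and 15.3 ± 3.53 in beta cells, and fell in delta over beta cells (-1.47, SE 0.22, adjusted p = 0.000685) and alpha over beta cells (-1.66, SE 0.20, adjusted p = 0.000131). Aldh18a1, which starts proline and ornithine synthesis from glutamate, fell in alpha over beta cells (-1.32, SE 0.14, adjusted p = 4.36e-05) and rose in delta over alpha cells (1.05, SE 0.17, adjusted p = 0.00103).

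Among other users of arginine, Gatm, which makes the creatine precursor guanidinoacetate, averaged 67.6 ± 6.02 RPKM in delta, 21.7 ± 4.27 in alpha and 24.0 ± 7.11 in beta cells. It rose in delta over beta cells (1.51, SE 0.24, adjusted p = 0.000959) and in delta over alpha cells (1.58, SE 0.27, adjusted p = 0.00155). Nos2, the inducible nitric oxide synthase, averaged 0.0394 ± 0.0206 RPKM in delta, 0.156 ± 0.0978 in alpha and 0.88 ± 0.302 in beta cells, and reached 1 RPKM in beta libraries alone, so no test is given for it either. Nos1 and Nos3 were under 1 RPKM in every library. This list holds genes named as using or modifying arginine, not only its consumers. Apart from Nos2, 3 of them rose in delta over beta cells, namely Gatm, Ddah2 and Adc, where 37.4% of all tested genes rose. The current symbol of Adc is Azin2. The limma call of Adc in delta over beta cells was lost in 5 of 17 alternatives. These were median-ratio scaling (adjusted p = 0.237), quantile normalization (-0.023, adjusted p = 0.928), rescaling without hormone genes (adjusted p = 0.146) and leaving out either delta library. That of Ddah2 was lost in 2 of 17, quantile normalization (adjusted p = 0.105) and the fit without delta library 2.

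The enzymes that supply the aminopropyl group start from S-adenosylmethionine. Mat2a, the widespread synthetase of that compound, averaged 27.0 ± 0.873 RPKM in delta, 11.1 ± 1.84 in alpha and 33.2 ± 7.85 in beta cells, and fell in alpha over beta cells (-1.39, SE 0.14, adjusted p = 4.82e-05). Mat1a, the form best known from liver, averaged 23.6 ± 1.0, 48.4 ± 6.53 and 22.9 ± 3.55 RPKM in delta, alpha and beta cells, and rose in alpha over beta cells (1.09, SE 0.13, adjusted p = 0.0001). By RPKM Mat1a was thus ahead of Mat2a in the alpha mean and behind it in the delta and beta means. In delta over beta cells limma called none of the 4 genes of this list, against 37.4% higher and 13.3% lower of all tested genes. Mtap was at -0.25 (SE 0.13, adjusted p = 0.129) and Mat2a at -0.23 (SE 0.16, adjusted p = 0.263). Other scalings made calls there, Mtap falling under quantile normalization (adjusted p = 0.000493) and Mat2a after median-ratio scaling (adjusted p = 0.0122). Amd1 and Amd2, which decarboxylate S-adenosylmethionine, were not analysed here.

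Downstream of the synthases, Eif5a, the protein that carries hypusine, averaged 117 ± 2.6 RPKM in delta, 120 ± 8.99 in alpha and 176 ± 19.0 in beta cells. It fell in delta over beta cells (-0.58, SE 0.12, adjusted p = 0.00363) and in alpha over beta cells (-0.54, SE 0.11, adjusted p = 0.00249), the call in alpha cells being lost under quantile normalization (adjusted p = 0.204). Sat2, a relative of Sat1, rose in delta over beta cells (0.82, SE 0.15, adjusted p = 0.00198), and Smox, spermine oxidase, was not called (-0.31, SE 0.15, adjusted p = 0.112). In 4 of 18 alternatives Smox was called lower there, among them quantile normalization (-0.68, adjusted p = 0.0018) and the fit without beta library 2. Slc18b1, a vesicular polyamine carrier, averaged 6.47 ± 0.217 RPKM in delta, 3.27 ± 0.149 in alpha and 3.71 ± 0.329 in beta cells. It rose in delta over alpha cells (0.80, SE 0.12, adjusted p = 0.000678) and in delta over beta cells (0.67, SE 0.11, adjusted p = 0.000901), the second call being lost under quantile normalization (adjusted p = 0.186). Of the antizymes, Oaz2 was not called in delta over beta cells (0.003, SE 0.11, adjusted p = 0.982). Oaz3 rose there by 0.62 (SE 0.12, adjusted p = 0.00278), a call lost under quantile normalization (adjusted p = 0.208) and without delta library 2. Oaz1, the widespread antizyme, was listed at 1 to 8 reads per library, and a pseudogene, Oaz1-ps, shares 20.1% of its transcript windows.

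**Figure D5:**
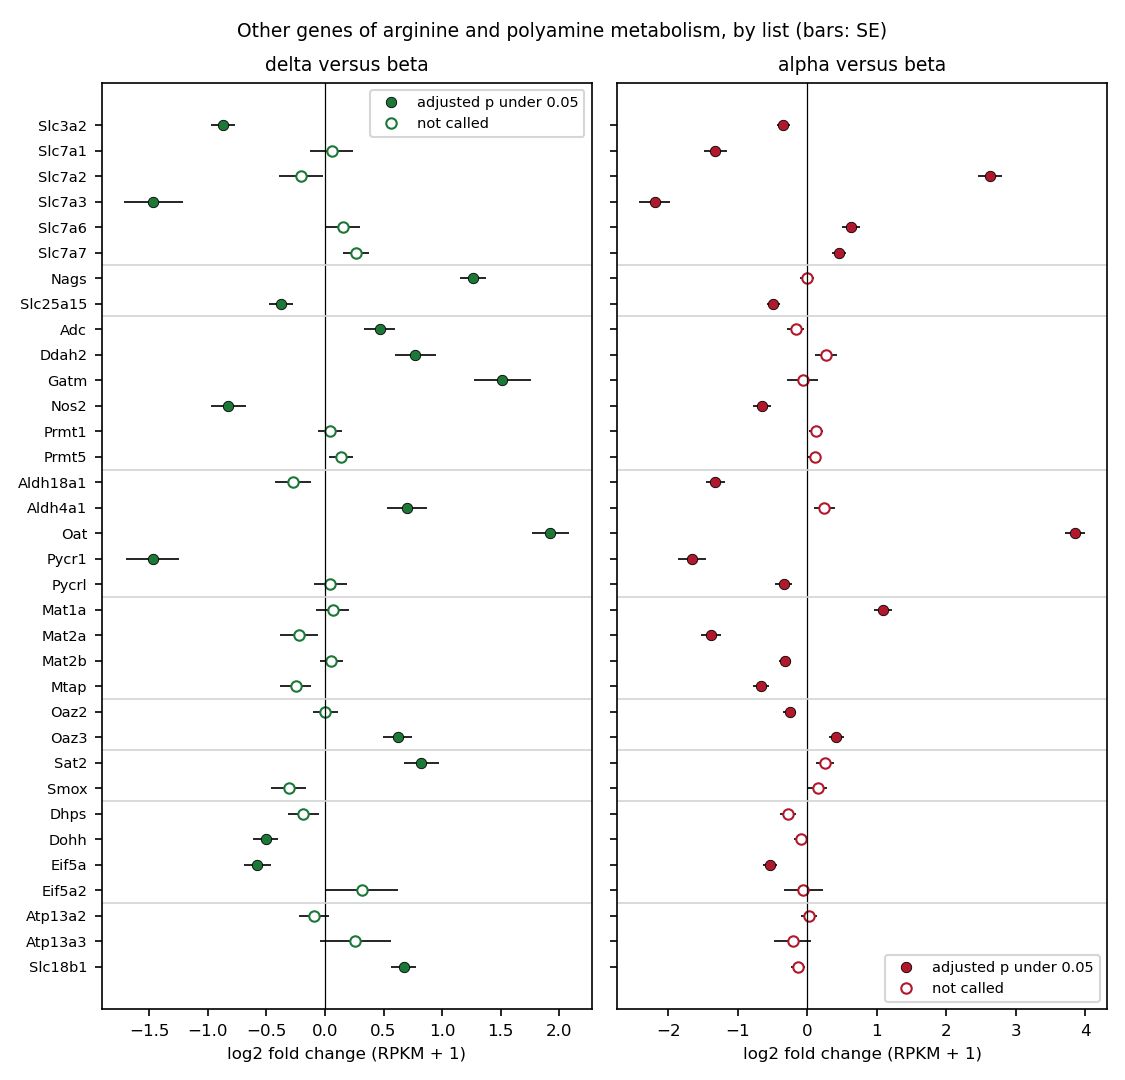
Log2 fold change with its SE for tested genes of the other pathway lists in delta over beta (left) and alpha over beta cells (right), on the log2(RPKM + 1) scale, filled where the adjusted p was under 0.05 and grouped by list. Filled points lie on both sides of 0, with Oat at 1.93 and 3.85 and Slc7a3 at -1.47 and -2.19.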

How the data were processed

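RNA from 2 delta, 3 alpha and 5 beta cell libraries was measured by sequencing. The authors deposited 1 table of RPKM values, and the submitters' processing notes name STAR 2.4, featureCounts, edgeR 3.12.0 and the build GRCm38.p3. For multi-mapped reads, the handling is not given in the sources used. Library totals and reads per gene were recovered from the steps of the low RPKM values and used for depth only. Genes with at least 1 RPKM in at least 2 libraries entered 1 limma fit (limma 3.58.1, R 4.3.3) of log2(RPKM + 1) over all 10 libraries, with terms for cell type and sex, a mean-variance trend and 6 residual degrees of freedom. Adjustment was by Benjamini-Hochberg over 12700 genes, and an adjusted p-value under 0.05 was called. The log2 fold changes understate differences of low genes. The fit was tested on simulated data.

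The genes and all lists were chosen with earlier results of these data known. The text names all 9 genes and, of each other list, some of the up to 3 called genes with the largest change and up to 2 uncalled genes with the highest level, with genes near 0; 1 gene of these lists is counted but not reported here. Coordinates come from GENCODE M21 on GRCm38, and shared transcript windows of 50 bases were counted in the same annotation. Alternatives were a pseudocount of 0.1, no filter, a filter of 5 RPKM, median-ratio and quantile scaling, rescaling without hormone genes, no sex term, no trend, and leaving out each library. A block on neighbouring title numbers, and leaving out genes over 1 RPKM in 1 cell type only, were added after seeing the data. Depth was 16688097 to 26684086 reads, and counting limits cover counting error only.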

Additional observations from a re-analysis of the deposited data

Results flagged for a closer look

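In 44 sets of 5 beta libraries, 3 had a library whose gap to the nearest other exceeded 0.71 of the whole range, and chance gives about 1 in 20. None was a set of the 9 genes described first. Slc7a3, an arginine carrier, stood at 11.9 RPKM in beta library 4, with the other beta libraries at 3.92 to 6.18. Aldh4a1, which oxidises a product shared by proline and ornithine breakdown to glutamate, stood at 11.2 RPKM in beta library 2, with the others at 7.53 to 8.48. Smox, spermine oxidase, stood at 6.48 RPKM in the same beta library 2, with the others at 9.05 to 9.59. Their cause was not tested.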

How the results depend on the processing

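Under the alternatives listed with the methods, 118 of 2458 recomputed log2 values changed sign. The titles number the libraries, though alpha libraries 1 and 2 share a number, as do beta libraries 4 and 5. Neighbouring numbers were taken as pairs in a replicate block chosen after seeing the data: delta library 1 with beta 1, delta 2 with beta 2, alpha 2 with beta 3 and alpha 3 with beta 5. The labels do not state this pairing. Deviations from the group means correlated across genes at 0.001, 0.372, 0.269 and 0.464 in these pairs, and delta library 1 correlated best with beta library 3. The 2 delta libraries deviate from their mean by equal and opposite amounts, so their correlations are not separate checks of the pairing. The block fit had no sex term and 2 residual degrees of freedom. With it, the other pathway genes called were 18 in delta over beta, 17 in alpha over beta and 17 in delta over alpha cells. Of all 12700 tested genes it called 6170 higher and 1736 lower, 2244 and 3504, and 4752 and 592. The median of the genes described first was 0.012 in delta over beta cells, where Sat1, its middle gene, was also at 0.012. The median of all tested genes was 0.353 there. Arg1 was at 6.80 in delta over beta, 2.09 in alpha over beta and 4.71 in delta over alpha cells with the block. Azin1 in delta over beta cells (0.271) and Srm in delta over alpha cells (-0.33) took the other sign with it. The cause of these and the changes below was not tested.

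Without a filter the median of the genes described first was -0.073 in delta over beta cells. With a filter of 5 RPKM, 5 other pathway genes were higher in delta over beta cells, against 35.2% of all tested genes. There 1 gene of the 9 was higher without overlap in delta over beta and in alpha over beta cells, since Sms drops out. Median-ratio scaling gave 13 other genes lower in delta over beta (against 24.4% of all tested genes) and 6 higher in delta over alpha cells (against 14.5%). In delta over alpha cells it gave a median of 0.017 for the genes described first, and 2 of them without overlap, 1 higher and 1 lower. Quantile normalization gave 4 other genes higher in delta over beta (against 22.5% of all tested genes) and 9 lower in alpha over beta cells (against 27.2%). It gave 6 higher and 10 lower in delta over alpha cells (against 15.5% and 16.1%). It turned the delta over alpha median to -0.004, with 3 genes without overlap, 1 higher and 2 lower, Adc in delta over beta cells to -0.023, and Slc3a2 in alpha over beta cells to 0.03. Rescaling without hormone genes gave 13 other genes lower in delta over beta (against 22% of all tested genes) and 6 higher in delta over alpha cells (against 14.7%). In delta over alpha cells the median was then 0.006, with 3 genes without overlap, 1 higher and 2 lower. The share of all tested genes without overlap was not counted under any of these settings. The counts without overlap given here therefore cannot be set against all genes.

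With 1 library left out at a time, the other pathway genes called were 11 to 18 in delta over beta cells (4 to 10 higher, 6 to 8 lower), 14 to 20 in alpha over beta cells (4 to 7 higher, 10 to 14 lower) and 9 to 18 in delta over alpha cells (5 to 11 higher, 3 to 7 lower). Without delta library 1, 9 were called in delta over alpha cells (6 higher, 3 lower). Without delta library 2, 11 were called in delta over beta cells (4 higher) and 10 in delta over alpha cells (5 higher). In the fits that kept both delta libraries, 33.7% to 39.4% of all tested genes were higher and 12% to 13.2% lower in delta over beta cells. The shares were 14.3% to 25.4% and 22.1% to 31.4% in alpha over beta cells. They were 22.2% to 36.3% and 4.35% to 6.21% in delta over alpha cells. Where delta was left with 1 library, it was assumed to vary like the other groups. Calls over all genes fell there as well, in delta over beta and delta over alpha cells, so the drop is not particular to the pathway genes. Over all genes, calls in delta over beta cells were 4750 higher and 1692 lower, against 3120 and 3096 after median-ratio scaling and 1974 and 907 without delta library 1. The interaction could not be fitted without alpha library 3.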
